A study of Rattus norvegicus with 8 samples.

Results

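Genes of the semaphorin, Slit, netrin and ephrin guidance systems were compared between the left atrial appendage and the left ventricular free wall of normal rats. The 37 genes were taken by symbol: 12 semaphorins, 6 plexins, 2 Slits with 2 Robo receptors, netrin 1 with 3 receptors, 4 ephrins and 7 Eph receptors. The list was set by symbol, with no measured value in its rule. Its members were, however, chosen with earlier results of these data known. Of these, 36 were read by 69 probe sets, groups of short oligonucleotides matched to 1 transcript, among 14217 genes and 31042 probe sets in all. No probe set is annotated to Ephb2. Each gene is given at its brightest probe set, that with the highest mean over the 8 arrays, unless another is named.

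The tissues came from 13 normal male Sprague-Dawley rats of 225 to 275 g, with no genetic or drug group in the series and no age in the labels. RNA came from 4 pools of each tissue with 1 array per pool, the number of animals in a pool is not stated, and p-values measure the spread between these pools. That both tissues are from the left side is stated in the methods and not in the labels. Whole tissue was extracted, so fewer cells of a type and less RNA per cell cannot be told apart. The values are log2 signal intensities, where a step of 1 is a doubling of the signal.

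Guidance systems pair a ligand on or from 1 cell with a receptor on another and steer its movement. Semaphorins signal through plexins, most class 3 semaphorins with a neuropilin as co-receptor, while Sema3e binds plexin D1 directly. Slits signal through Robo receptors and netrin 1 through Dcc, neogenin and the Unc5 receptors. Ephrins of the A class are held to the membrane by a lipid anchor and those of the B class span it. Eph receptors are tyrosine kinases, and EphA4 is known to bind ephrins of both classes. In the heart these genes are best known from the development of vessels, nerves, valves and the outflow tract.

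Markers of the labelled tissues were checked first. All 7 measured markers of atrial myocytes were higher in the atria and all 7 of ventricular myocytes were lower (adjusted p under 0.05 from limma, the linear model used throughout, which also sets every other call). The summed linear signal of the ventricular markers was 822 to 4691 in the atrial pools against 23762 to 25173 in the ventricular pools. Within it the ventricular light chain Myl2 was at 10.48 in the first and 11.3 in the fourth atrial pool, above the 4.32 and 6.82 of the other two, so results are also given without replicates 1 and 4 where these decide a call. The medians of the 8 arrays were 4.8 or 4.81. Signals whose mean falls below log2 4 are called near the low end. A fold against such a mean is a lower bound, and a difference between 2 such means is printed as measured, without setting the size of a change.

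More guidance genes were called toward the ventricles than toward the atria. The counts were 18 lower in the atria, 8 higher and 10 not passed, of 36. Over all 14217 genes 22.5% were higher and 22.5% were lower. The median difference, atrium minus ventricle, was -0.24 on the log2 scale against -0.04 over all genes. The shares of the guidance genes were 22.2% higher and 50% lower, and no gene was left out for a low signal, though 7 of the 36 were near the low end in both tissues. Every atrial pool lay above every ventricular pool in 6 genes and below in 16, where the background over all genes was 22.2% above and 21.9% below.

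The thresholds of the study were a false discovery rate of 0.01%, taken here as an adjusted p under 0.0001, and a fold of at least 1.8. Under them Epha4 and Slit3 were higher in the atria, and Sema3g, Sema6a, Plxnd1, Unc5b, Unc5c, Efnb3 and Epha3 were lower. Over all genes 3.37% passed in the atrial and 2.53% in the ventricular direction. Among guidance genes the largest difference was that of the receptor Epha4, 15.6 fold higher in the atria. The largest in the other direction was that of the ligand Efnb3, 6.55 fold higher in the ventricles. Epha3 was lost when any array but ventricular replicate 3 was left out (adjusted p from 2.4e-04 to 5.3e-04) and Unc5c when that array was left out (1.2e-04). Without atrial replicates 1 and 4 together both were lost (0.001 for Epha3 and 2.0e-04 for Unc5c), while the other 7 kept their call in these fits. With the mean of all probe sets of a gene, Sema3g (-0.75), Sema6a (-0.64), Unc5c (-0.55) and Epha3 (-0.79) fell short of 1.8 fold. Plxnd1 was lost with the replicate number as a block (1.2e-04), as was Epha3 (4.2e-04). Epha3 was also lost with quantile and cyclic loess normalization (2.4e-04 and 2.3e-04), and Unc5c with cyclic loess (-0.85, just under the cut). The cut at 1.8 fold was close for Plxnd1 (1.85 fold), and Sema6d (1.74 fold) lay just under it.

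**Figure D1:**
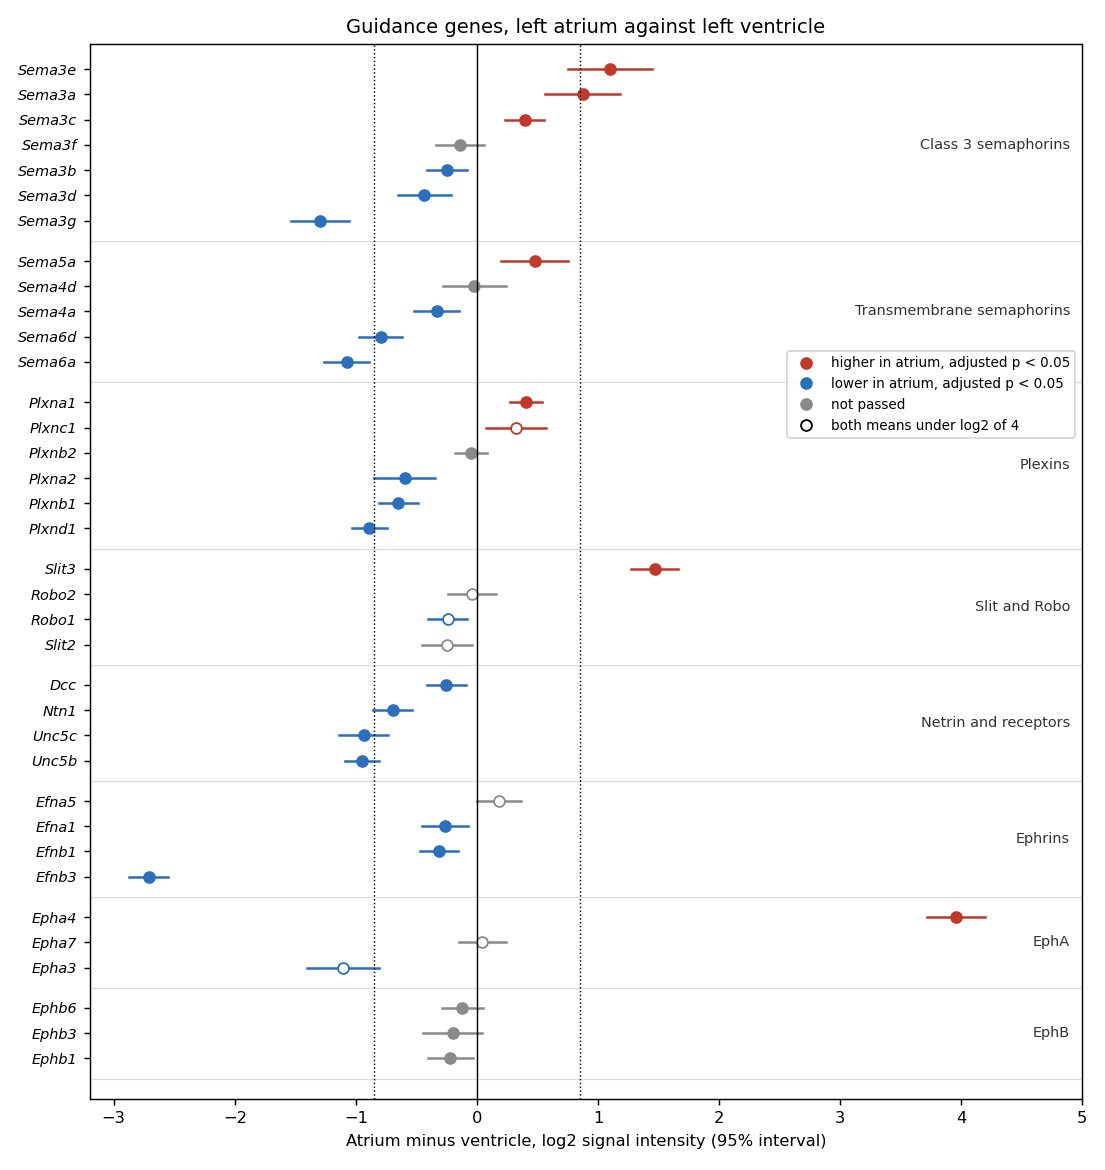
Difference in log2 signal intensity, atrium minus ventricle, for each of the 36 guidance genes at its brightest probe set, with 95% intervals from limma on 4 pools per tissue. Red marks genes higher and blue genes lower in the atria (adjusted p under 0.05), grey those that did not pass, open circles mark genes near the low end in both tissues and dotted lines mark a fold of 1.8. Epha4 lies farthest right at 3.96 and Efnb3 farthest left at -2.71.

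Of the 19 ligands, counting all semaphorins as ligands, 10 were lower in the atria, 5 were higher and 4 did not pass. Of the 17 measured receptors 3 were higher, 8 were lower and 6 did not pass. The shares were 52.6% lower and 26.3% higher for ligands and 47.1% and 17.6% for receptors, beside 22.5% of all genes in each direction. The median differences of the 2 kinds were -0.25 and -0.22.

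Start-site sequences are shown for 3 genes past the study thresholds, so that the genes called in opposite directions can be read beside each other. RefSeq sequences of build GRCr8, from 250 bases before to 50 bases after the gene start, were at hand for 25 of the 36 genes, and for 5 of the 8 genes past the thresholds that were not near the low end in both tissues. Those without an entry were Epha4, Efnb3 and Unc5c. The first gene shown was higher in the atria and the others were lower. Capitals mark matches, on either strand, to any of 4 motifs of heart and muscle factors: the E-box CANNTG, the GATA core GATAA, the T-box core GGTGTG and the MEF2 site CTATTTTTA.

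Slit3, chr10:20075679-20075978 (+ strand, GRCr8), 5′ to 3′: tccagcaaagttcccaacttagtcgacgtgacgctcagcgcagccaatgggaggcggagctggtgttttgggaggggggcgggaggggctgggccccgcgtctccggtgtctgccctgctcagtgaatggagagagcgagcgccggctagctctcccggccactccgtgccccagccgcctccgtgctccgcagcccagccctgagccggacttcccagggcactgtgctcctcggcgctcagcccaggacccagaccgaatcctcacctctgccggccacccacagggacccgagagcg
Sema3g, chr16:6419775-6420074 (+ strand, GRCr8), 5′ to 3′: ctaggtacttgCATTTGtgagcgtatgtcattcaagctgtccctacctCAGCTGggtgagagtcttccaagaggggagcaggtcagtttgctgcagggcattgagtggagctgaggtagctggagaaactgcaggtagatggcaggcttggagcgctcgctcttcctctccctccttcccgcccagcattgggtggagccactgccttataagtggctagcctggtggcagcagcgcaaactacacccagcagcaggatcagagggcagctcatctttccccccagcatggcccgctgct
Unc5b, chr20:29307221-29307520 (- strand, GRCr8), 5′ to 3′: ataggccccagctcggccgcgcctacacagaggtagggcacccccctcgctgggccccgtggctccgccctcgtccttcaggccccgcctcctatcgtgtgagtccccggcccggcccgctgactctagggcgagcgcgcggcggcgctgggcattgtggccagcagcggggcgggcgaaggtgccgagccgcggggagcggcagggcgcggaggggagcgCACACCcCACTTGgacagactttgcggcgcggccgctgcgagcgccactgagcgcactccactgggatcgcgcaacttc

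Slit3 held none of the 4 motifs in this window, and nor did Plxnd1, not shown, whose window has a GC content of 83.0%. Positions give the first base of a match, counted from the gene start. Sema3g held 2 E-boxes, at -239 and -202, and Sema6a, not shown, held 1 E-box at -78 and a MEF2 site at -173. Unc5b held a T-box core, read on the other strand, at -29 and an E-box at -22. No matches overlapped. Of all 33469 windows in the table, 72.1% hold an E-box, 26.5% a GATA core, 17.9% a T-box core and 0.514% a MEF2 site. The motifs were chosen after the differences were known, and a match is a run of letters and not a shown binding site.

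Class 3 semaphorins, which are secreted, were divided: 3 of 7 were called in each direction and 1 did not pass. Sema3g, an endothelial semaphorin of arteries, read 5.02, 4.95, 4.87 and 4.61 in atrial replicates 1 to 4 and 6.07, 6.43, 6.06 and 6.08 in ventricular replicates 1 to 4. All atrial pools lay below all ventricular pools, and the tissues differed by -1.3 (standard error 0.11, adjusted p = 6.0e-06 from limma), a 2.46 fold higher level in the ventricles. Ventricular replicate 2 stood above the other 3 ventricular pools. The weaker Sema3g probe set differed by -0.21 and did not pass (adjusted p = 0.11), and the mean of both was lower by less (-0.75, adjusted p = 7.7e-05 from limma).

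Sema3e, the ligand of plexin D1, read 4.96, 4.63, 4.43 and 4.13 in the atria and 3.43, 3.29, 3.34 and 3.69 in the ventricles. The atrial pools were all higher, with no overlap and a wider spread than the ventricular pools (SD 0.35 against 0.18, n = 4 each). Its difference of 1.1 (95% interval 0.75 to 1.45, adjusted p = 2.8e-04 from limma) is at least 2.14 fold, since the ventricular mean of 3.44 is near the low end. Without atrial replicate 4 it also passed the study thresholds. Sema3a, which repels growing sympathetic axons in the developing heart, read 3.86, 3.93, 4.59 and 4.11 in the atria and 3.14, 3.34, 3.16 and 3.36 in the ventricles. Its pools did not overlap, and the atrial excess was 0.87 or more (adjusted p = 6.5e-04 from limma). Its fold of 1.83 is above the study cut, while its adjusted p is not under 0.0001. Both genes passed those thresholds with the SAM statistic that the study used.

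Sema3c, needed for the division of the outflow tract, was at 9.33 ± 0.11 in the atrial and 8.94 ± 0.07 in the ventricular pools (SD, n = 4 each). It was 1.31 fold higher in the atria (adjusted p = 0.0015 from limma), and its pools did not overlap. Sema3d was lower in the atria (-0.44, adjusted p = 0.0057), with an overlap at atrial replicate 1 and ventricular replicate 1, both at 4.84. Sema3b, whose atrial mean is near the low end, was lower in the atria (-0.25, adjusted p = 0.023), and this call was lost without atrial replicate 2 (0.063) or 3 (0.057), without ventricular replicate 1 or 3 (0.063 each), and with quantile (0.055) or cyclic loess normalization (0.098). The brighter Sema3f probe set differed by -0.14 (95% interval -0.34 to 0.06) and did not pass, while the other, at 5.19 ± 0.2 in the atria and 4.57 ± 0.09 in the ventricles, was higher by 0.61 (adjusted p = 5.8e-04). The 2 Sema3f probe sets thus gave different readings, and the mean of both was higher in the atria, by 0.24 (adjusted p = 0.047).

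Semaphorins that span the membrane were lower in the atria in 3 of 5 genes, higher in 1 and not passed in 1. Sema6a, a ligand of A-type plexins that can also act as a receptor, read 6.81, 6.83, 6.87 and 6.87 in the atria and 7.77, 8.18, 7.87 and 7.87 in the ventricles. The atrial pools were tight (SD 0.03, n = 4) and all lay below the ventricular pools. The gene was 2.11 fold higher in the ventricles (difference -1.08, standard error 0.09, adjusted p = 3.9e-06 from limma). Its other 4 probe sets differed by -0.93, -0.57, -0.35 and -0.25, the last of which did not pass (adjusted p = 0.055) and the last 3 of which are near the low end in both tissues. The mean of all 5 differed by -0.64.

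Sema6d, a plexin A1 ligand of the developing heart, read 7.27, 7.31, 7.48 and 7.55 in the atria and 8.1, 8.12, 8.29 and 8.29 in the ventricles. Its pools did not overlap, and the difference of -0.8 (adjusted p = 2.6e-05 from limma) is 1.74 fold. Sema4a was lower in the atria (-0.33, adjusted p = 0.0097). Sema5a was higher in the atria by 0.48 (adjusted p = 0.012), with atrial replicate 4 at 5.71 among the ventricular pools of 5.49 to 5.75 and the other 3 atrial pools at 6.24 to 6.28. Of its 3 other probe sets 1 was higher in the atria (0.45, adjusted p = 0.0061 from limma) and 2, near the low end in both tissues, did not pass (-0.2 and 0.08). The mean of all 4 was higher by 0.2 (adjusted p = 0.021). Sema4d, known from immune cells, differed by -0.02 (95% interval -0.28 to 0.24, adjusted p = 0.9).

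Among the plexins, the receptors of semaphorins, 3 of 6 were lower in the atria, 2 were higher and 1 did not pass. Plxnd1, the plexin of endothelial cells, read 7.28, 7.23, 7.31 and 7.43 in the atria and 8.22, 8.23, 8.25 and 8.11 in the ventricles. The pools of each tissue were tight and did not overlap, and the level in the ventricles was 1.85 fold higher (difference -0.89, standard error 0.06, adjusted p = 2.2e-06 from limma). The ligand Sema3e and its receptor Plxnd1 were thus called in opposite directions.

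Plxnb1, a receptor of Sema4d, was lower in the atria (-0.65, 7.04 ± 0.13 against 7.69 ± 0.03, SD, n = 4 each, adjusted p = 4.3e-05 from limma). Its other probe sets differed by -0.45 and -0.19, the latter not passed. Plxna2, a receptor of Sema3c and of Sema6a, was lower in the atria, at -0.6, and its other 2 probe sets were also lower, by -0.56 and -0.34. Plxna1 was higher by 0.4 (7.04 ± 0.07 against 6.64 ± 0.03, adjusted p = 3.3e-04), but its 2 weaker probe sets differed by -0.06 and -0.11 and did not pass, and the mean of the 3 did not pass (0.08, adjusted p = 0.3). Plxnc1 was near the low end in both tissues, and its call in the atrial direction (adjusted p = 0.044) was lost on leaving out any 1 array other than atrial replicate 3 or ventricular replicate 3 (adjusted p from 0.059 to 0.12 on those 6 arrays) and without atrial replicates 1 and 4 together (0.21). Plxnb2 had 8.32 ± 0.05 and 8.37 ± 0.07, a difference of -0.05 (95% interval -0.18 to 0.08).

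**Figure D2:**
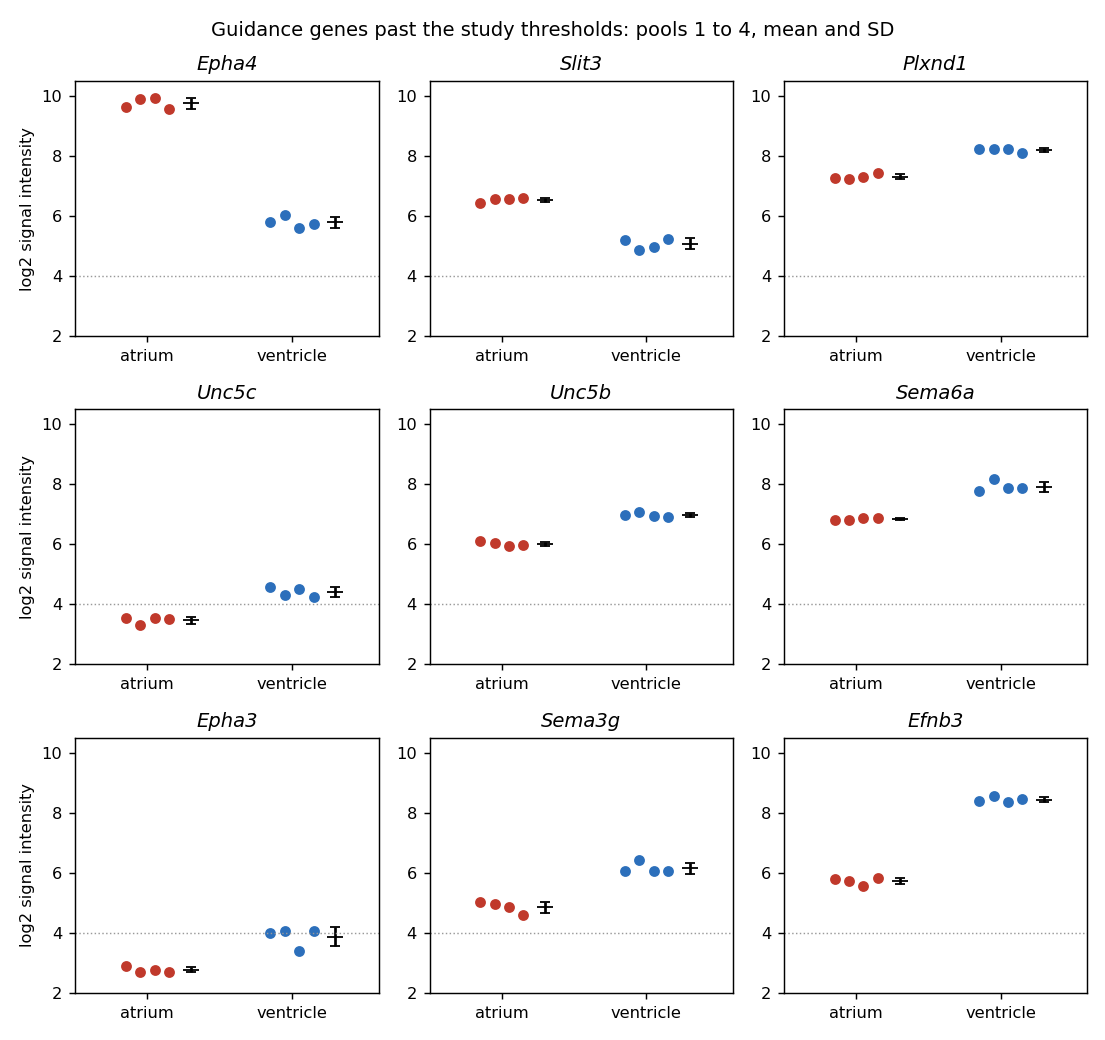
Log2 signal intensity of the 9 guidance genes past the study thresholds, with 1 point per pool in order of replicate, red for the atria and blue for the ventricles, and the mean with its SD in black (n = 4 pools). The dotted line marks a log2 of 4. In none of the 9 do the pools of the tissues overlap, and Epha3 lies near or under the line in both tissues.

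Slit3 had the largest atrial excess among the 19 ligands. Slit3 read 6.45, 6.58, 6.57 and 6.58 in the atria and 5.21, 4.88, 4.98 and 5.24 in the ventricles. The atrial pools were tight, with replicate 1 a little below the other 3, and all lay above the ventricular pools. The difference was 1.47 (standard error 0.09, adjusted p = 5.0e-07 from limma), or 2.77 fold. Neither Slit receptor was called higher in the atria. Robo1 was lower in the atria, with 3.69 ± 0.12 against 3.93 ± 0.05 (SD, n = 4 each, adjusted p = 0.022 from limma). Robo2, at 2.95 ± 0.02 and 3.0 ± 0.2, did not pass, and both genes are near the low end in both tissues. The Robo1 call was lost without atrial replicate 2 (adjusted p = 0.054) or 3 (0.062) or ventricular replicate 3 (0.056) or 4 (0.058), and with quantile (0.078) or cyclic loess normalization (0.12). All 3 Slit2 probe sets were near the low end too, and none passed (adjusted p from 0.061 to 0.41). The brightest of them passed on leaving out atrial replicate 2 (0.043) or 4 (0.044) or ventricular replicate 3 (0.0495), with SAM (0.017) and with the mean of the 3 (0.038).

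All 4 listed genes of the netrin group were lower in the atria, where 22.5% of all genes were. Neogenin (Neo1), a netrin receptor outside the listed group, was higher by 1.17. Unc5b, a netrin receptor of vessels, read 6.1, 6.06, 5.94 and 5.99 in the atria and 6.99, 7.07, 6.93 and 6.91 in the ventricles. The groups did not overlap and differed by -0.95 (adjusted p = 1.1e-06 from limma, standard error 0.06), and the other Unc5b probe set differed by -0.85 (adjusted p = 1.2e-05). Unc5c, a netrin receptor known from repelled axons, read 3.55, 3.31, 3.55 and 3.51 in the atria and 4.59, 4.3, 4.52 and 4.25 in the ventricles. Its atrial pools were all near the low end, so its fold of 1.91 is a lower bound, and its weaker probe set did not pass (-0.16, adjusted p = 0.083).

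The ligand netrin 1 (Ntn1) read 6.57, 6.71, 6.45 and 6.49 in the atria and 7.16, 7.32, 7.22 and 7.3 in the ventricles. Its pools did not overlap either, and the level was 1.62 fold higher in the ventricles (difference -0.69, adjusted p = 2.9e-05 from limma). The 2 weaker Ntn1 probe sets, near the low end in both tissues, differed by -0.26 and -0.17 and did not pass. Dcc, the receptor through which netrin attracts axons, differed by -0.25 (4.12 ± 0.06 against 4.37 ± 0.12, adjusted p = 0.019). The call for Dcc was lost without ventricular replicate 3 (0.056) or 4 (0.052), without atrial replicates 1 and 4 (0.08) and with cyclic loess between arrays (0.097).

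Of 4 measured ephrins 3 were lower in the atria and 1 did not pass. Efnb3, an ephrin that spans the membrane, read 5.79, 5.72, 5.58 and 5.82 in the atria and 8.39, 8.55, 8.35 and 8.46 in the ventricles. The 2 sets of pools were far apart, by over 2 log2 steps between the nearest pools. The difference of -2.71 (95% interval -2.87 to -2.55, adjusted p = 2.2e-09 from limma) rests on 1 probe set. Efnb1 was lower in the atria (-0.31, adjusted p = 0.0048), and its weaker probe set was lower too (-0.43). Efna1, known from vessels, was lower in the atria (-0.26, adjusted p = 0.033), and its call was lost without atrial replicate 3 (0.073) or 4 (0.063) or ventricular replicate 1 (0.09) or 2 (0.088), without atrial replicates 1 and 4 together (0.058), and with the mean of both probe sets (0.12). Efna5 was near the low end in both tissues and did not pass (0.18, adjusted p = 0.1). It passed in the atrial direction with SAM (0.031), quantile (0.041) or cyclic loess normalization (0.027) and the mean of both probe sets (0.036).

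Epha4 was the guidance gene that differed most. Epha4 read 9.62, 9.89, 9.92 and 9.58 in the atria and 5.81, 6.03, 5.6 and 5.74 in the ventricles. Every atrial pool was over 3.5 log2 steps above every ventricular pool, and the means were 9.75 ± 0.18 and 5.79 ± 0.18 (SD, n = 4 each). The difference was 3.96 (95% interval 3.72 to 4.2, adjusted p = 2.2e-09 from limma). Its 3 other probe sets were all higher in the atria, by 4.13, 3.27 and 1.84, which is 17.5, 9.65 and 3.59 fold. The receptor Epha4 and the ligand Efnb3 were therefore the 2 genes of largest difference, in opposite directions.

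Among the other Eph receptors only Epha3 passed, near the low end in both tissues. Epha3 read 2.88, 2.7, 2.77 and 2.71 in the atria and 3.99, 4.05, 3.39 and 4.06 in the ventricles. The ventricular pools were all higher, with replicate 3 below the other 3, but both means are near the low end, so the size of the difference of -1.11 (adjusted p = 9.5e-05 from limma) is not set. Both other Epha3 probe sets, near the low end in both tissues too, were also called lower in the atria. Epha7 differed by 0.04 and its second probe set by 0.19, and neither passed. Of the B receptors, Ephb1 read 3.75, 3.93, 3.75 and 3.77 in the atria and 4.19, 4.09, 3.93 and 3.86 in the ventricles, overlapping at atrial replicate 2, and did not pass (-0.22, adjusted p = 0.059). It passed without atrial replicate 2 (0.043) or ventricular replicate 4 (0.032), with SAM (0.017) and among genes averaged over their probe sets (0.046). Ephb3 and Ephb6 differed by -0.2 and -0.12 and did not pass (adjusted p = 0.18 and 0.24), though Ephb3 passed without atrial replicate 4 (0.016) and without atrial replicates 1 and 4 together (0.047).

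**Figure D3:**
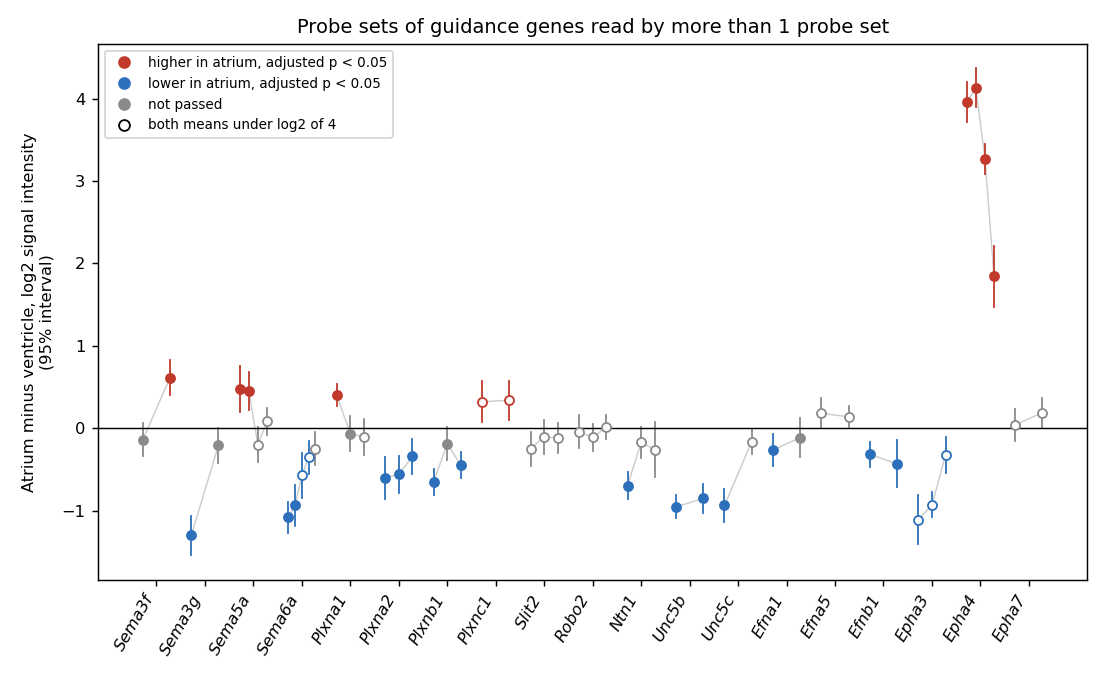
Differences in log2 signal intensity, atrium minus ventricle, with 95% intervals from limma, for every probe set of the 19 guidance genes that have more than 1, ordered within a gene from the brightest on the left. Colors and open circles mark calls and low signals as in the plot of all genes. The 4 Epha4 probe sets lie between 1.84 and 4.13, and no gene has probe sets called in both directions.

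Probe sets were counted as well, and of the 69 for guidance genes 14 were called higher, 28 lower and 27 neither, where 18.6% and 20.1% of all 31042 probe sets were higher and lower. Past the study thresholds were 5 higher and 10 lower, with 2.64% and 1.87% of all probe sets. Probe sets of 1 gene are not replicates of it. In 0 of the 19 genes with several probe sets was 1 probe set called higher and another lower.

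The rest of the pathway was read through 40 further ligands, receptors and co-receptors, of which 27 were measured. In that list 7 were lower in the atria, 6 were higher and 14 did not pass, with a median difference of -0.13. These are 25.9% lower and 22.2% higher, near the 22.5% of all genes in each direction. The neuropilin Nrp2, a co-receptor of class 3 semaphorins, read 5.98, 5.79, 5.91 and 6.35 in the atria and 7.52, 7.35, 7.37 and 7.34 in the ventricles, 2.62 fold higher in the latter (adjusted p = 3.9e-06 from limma). Past the study thresholds in the atrial direction were Flrt2, a ligand of Unc5 receptors (at least 3.4 fold), the netrin receptor neogenin (Neo1, 2.25 fold) and the neogenin ligand Rgmb (2.05 fold). Neo1 was thus called opposite to Ntn1, Dcc, Unc5b and Unc5c. The weaker Neo1 probe sets differed by 1.27 and -0.07, the latter near the low end in both tissues and not passed. Rgma, of the same family as Rgmb, was lower in the atria (-0.76, adjusted p = 7.1e-05 from limma). Its pools did not overlap, and its fold of 1.69 is under the study cut.

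Downstream of the receptors 54 genes of the cytoskeleton and of small G proteins were listed and 51 measured. Of these 17 were lower in the atria, 13 were higher and 21 did not pass, with a median difference of -0.07. These are 33.3% lower and 25.5% higher, beside 22.5% of all genes in each direction. Past the study thresholds were Chn2, a GTPase activating protein of Rac (3.53 fold), Mical3, an oxidoreductase that acts on actin (1.92 fold), and the kinase Pak1 (1.83 fold), all higher in the atria. Ablim1, an actin binding protein (3.12 fold), and the tyrosine kinase Fes (2.08 fold) were higher in the ventricles. The weaker Pak1 probe set, near the low end in both tissues, was higher in the atria by only 0.19 (adjusted p = 0.026 from limma). The weaker Mical3 probe sets differed by 1.34 and -0.02, the latter not passed.

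**Figure D4:**
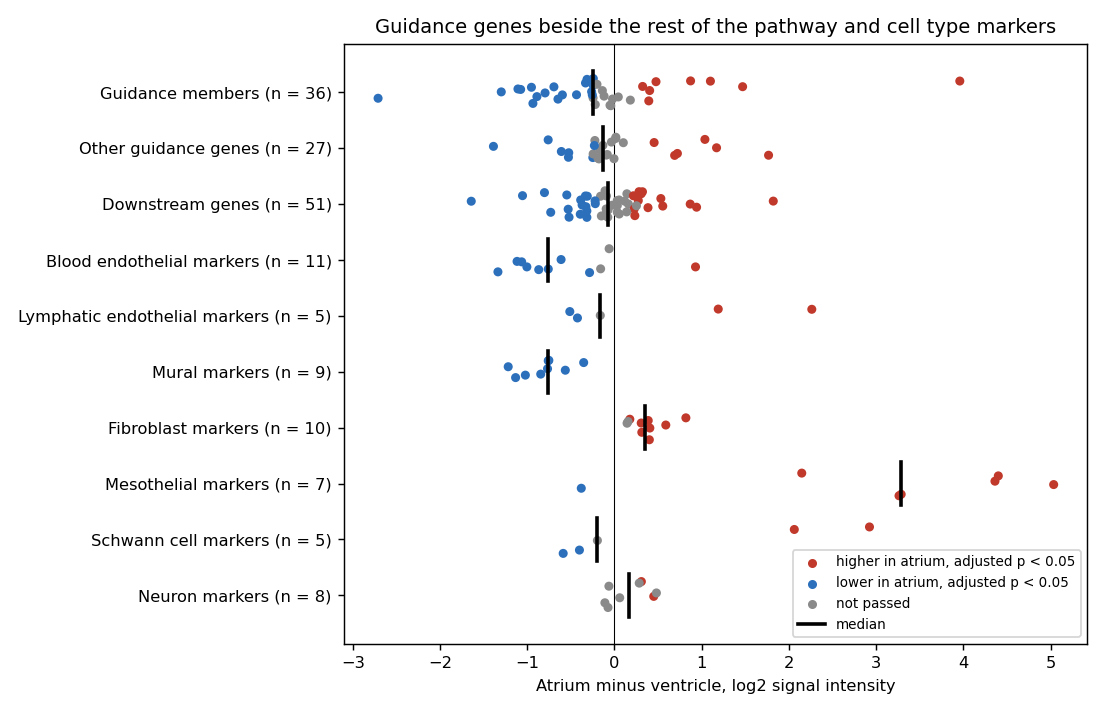
Differences in log2 signal intensity, atrium minus ventricle, for the guidance genes, the 2 pathway lists and 7 lists of cell type markers, 1 point per gene at its brightest probe set, spread vertically at random for display. Red and blue points are genes called higher and lower (adjusted p under 0.05), grey points did not pass, and black bars are medians. Mural markers lie wholly below 0, and the medians of the guidance genes and of blood endothelial markers are -0.24 and -0.76.

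Several guidance genes are known from vessels, and markers of vessel cells also differed between the tissues. Of 11 measured blood endothelial markers 8 were lower in the atria, 1 (Vwf) was higher and 2 did not pass, with a summed linear signal of 3410 to 3591 in the atria and 4694 to 5149 in the ventricles. All 9 listed markers of mural cells, the pericytes and smooth muscle cells of vessels, were lower (1247 to 1373 against 2464 to 2524). The brightest of the mural list was Abcc9 (9.81 in the ventricles), and whole tissue does not show which cells its signal came from. The median differences of the lists were -0.76 and -0.77, beside -1.3 for Sema3g, -0.89 for Plxnd1, -0.95 for Unc5b and -1.39 for Nrp2. Smaller differences than these medians were those of Efna1 (-0.26), the neuropilin Nrp1 (-0.53) and the Eph receptor Ephb4 (-0.61). The weaker Nrp2 probe set (-0.56) was also closer than the medians to no difference. None of the endothelial markers and 1 mural marker, Cnn1, was near the low end in both tissues. Their part in the differences of the guidance genes was not tested.

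Fibroblast markers were higher in the atria in 8 of 10 genes (summed signal 15534 to 17972 against 12421 to 14314) and mesothelial markers in 6 of 7, with 1 lower (1105 to 2095 against 186 to 208). Adipocyte markers were higher in 5 of 7 and varied widely between atrial pools (1597 to 5441 against 2191 to 2427). Most of the ventricular sum came from Fabp4, at a mean of 11.1 in the ventricles, which did not pass (-0.19). The 5 higher markers had ventricular means from 2.99 (Cidec) to 5.23 (Cfd), so the sums do not show their difference. Lymphatic endothelial markers were divided, 2 higher and 2 lower of 5 (1202 to 1432 against 755 to 854), as were Schwann cell markers, 2 and 2 of 5 (371 to 412 against 151 to 159). Of the lymphatic list Pdpn (2.26) and Lyve1 (1.19) were higher, and Flt4 (-0.51) and Ccl21 (-0.42) were lower. Of the Schwann cell list Mbp (2.92) and S100b (2.06) were higher, and Sox10 (-0.59) and Gfra3 (-0.4) were lower. The higher atrial sums of these lists thus hide the markers that were lower. Of 8 leukocyte markers 2 were higher and 3 lower (1771 to 2214 against 2894 to 3209). Of 8 neuron markers 2 were higher and 6 did not pass, and 5 were near the low end in both tissues (124 to 153 against 118 to 126). Whether any of these cell types bears on the atrial excess of Epha4, Slit3, Sema3a, Sema3c or Sema3e was not tested.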

How the data were processed

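Left atrial and left ventricular RNA, 4 pools per tissue and 10 μg of total RNA per array, was hybridized to Affymetrix Rat Genome arrays. The authors summarized the probe intensities by RMA (background adjustment, quantile normalization and summary of each probe set; version not stated), which yields the deposited log2 intensities, 31042 per array. They were used without further scaling. Quantile normalization gives the arrays 1 distribution, so differences are relative to the bulk of probe sets.

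Gene symbols came from the platform annotation, which gives 20826 probe sets 1 gene, 436 several and 9780 none, and were checked against RefSeq by gene ID, which matched for 20758. No column was left unmapped. Tissues were compared with limma 3.58.1 in R 4.3.3, p-values being adjusted by Benjamini-Hochberg across the whole array, after the procedure was tested on simulated data. An adjusted p under 0.05 made a call, and lists were described by counts and medians. Members, lists and markers were chosen with earlier results of these data known. Values of every pool are printed for genes past the study thresholds and for the largest difference of each family, and genes of the pathway lists past those thresholds are named. Pools of Sema3a, Sema3e, Sema6d, Ntn1 and Nrp2 were added after their values were seen, and the motifs were chosen then too.

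Median SDs between pools were 0.117 in the atria and 0.0986 in the ventricles, and 0.12 in both for the guidance genes. The number of arrays limits the precision. Alternatives were the SAM statistic of the study (70 permutations), a trended robust fit, 3 further scalings, the dimmest 40% of probe sets left out, a replicate block, arrays left out, the mean of the probe sets of a gene and other fold criteria. Figures were drawn with matplotlib 3.10.9.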

Additional observations from a re-analysis of the deposited data

Results flagged for a closer look

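In 8 of 72 sets of 4 pools of 1 tissue, 1 guidance gene in each, a pool stood far from the other 3 by Dixon's ratio at its critical value for 4 values. Chance flags about 1 set in 20. In the atria these were Sema5a in replicate 4 at 5.71 (others 6.24 to 6.28), Slit3 in replicate 1 at 6.45 (6.57 to 6.58), Unc5c in replicate 2 at 3.31 (3.51 to 3.55) and Dcc in replicate 3 at 4.2 (4.07 to 4.1). Efna5 in replicate 1 stood at 4.1 (3.89 to 3.93) and Ephb1 in replicate 2 at 3.93 (3.75 to 3.77). In the ventricles these were Sema3g in replicate 2 at 6.43 (6.06 to 6.08) and Epha3 in replicate 3 at 3.39 (3.99 to 4.06). The calls of Sema3g, Slit3, Sema5a, Unc5c, Dcc and Epha3 at an adjusted p under 0.05 held without the pool that stood apart.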

How the results depend on the processing

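Over 17 alternatives 20 of the 26 calls of guidance genes held under each alternative that measured the gene. The other 6 were Sema3b, Plxna1, Plxnc1, Robo1, Dcc and Efna1. With the SAM statistic of the study 4 guidance genes passed the study thresholds in the atrial direction, against 2, and 12 of the further pathway genes were lower, against 7. With the dimmest 40% of probe sets left out, 5 guidance genes and 9 guidance probe sets were higher in the atria, against 8 and 14, as fewer were tested. With the mean of all probe sets of a gene, 3 guidance genes passed the study thresholds in the ventricular direction (Plxnd1, Unc5b and Efnb3), against 7, 11 further pathway genes were lower, against 7, and Sema3f turned from -0.14 to 0.24. At a fold of at least 3 only Epha4 and Efnb3 passed, 1 in each direction. Causes were not tested.

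With 1 array left out, 7 to 8 guidance genes were higher and 15 to 19 lower, and 2 to 3 and 6 passed the study thresholds. Without atrial replicates 1 and 4 together 23 of the 26 calls held. With cyclic loess 9 were higher and 15 lower, and with quantile normalization 9 and 16. Pools with the same number had residual correlations from -0.188 to 0.155, and whether they hold the same animals is not stated. The highest values were between pools of different number. These were 0.278 for atrial replicate 4 with ventricular replicate 3 and 0.225 for atrial replicate 3 with ventricular replicate 4. The replicate block joins pools by number and so may not join pools of the same animals. With the replicate block 7 guidance genes were higher and 18 lower, against 8 and 18, and Plxnc1 was lost (adjusted p = 0.09).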
